A study of Homo sapiens with 9 samples.

Results

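The heat shock proteins and their DNAJ cochaperones were followed in the human prostate cancer cell line DU145 over 6 days of treatment with a compound or its solvent. Members were chosen by gene symbol and selected on their measured level in the deposited expression table. The symbol had to begin with HSPA, HSPB, HSPD, HSPE, HSPH, HSP90 or DNAJ, while HSPBP1 and HSPBAP1, which share a prefix without being chaperones of these families, were dropped. The level, in FPKM (fragments scaled by transcript length and library size), had to reach 1 in 3 or more of the 9 libraries. This left 59 of 70 such genes, out of 16772 genes in the table. They were 3 HSP90 genes, 12 genes of the HSPA (HSP70) prefix, HSPH1 of the HSP110 class, the 2 mitochondrial chaperonin genes HSPD1 and HSPE1, 3 small heat shock protein (HSPB) genes, 4 DNAJA, 9 DNAJB and 25 DNAJC genes. Levels chose these genes, so their presence is not a result, and 3 of them were close to the limit. HSPA1L reached an FPKM of 1 in 5 libraries, DNAJC12 in 6 and DNAJC28 in 8. DNAJC12 did so in the H93 and SAHA libraries alone, so its difference from DMSO was partly fixed by the choice. Of the 11 genes left out, HSPA6, a strictly inducible HSP70, came closest with a highest FPKM of 0.989, and the next, HSPB6, reached 0.355. The other 9 left out were HSPA12B, HSPB2, HSPB3, HSPB7, HSPB9, DNAJB13, DNAJC15, DNAJC5B and DNAJC5G, with a highest FPKM between 0.0176 and 0.275.

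The 3 groups of 3 libraries each were DU145 cells labelled wild type and kept with 20 µM H93, with 500 nM SAHA, the histone deacetylase inhibitor vorinostat, or with DMSO alone, which was also the solvent of both compounds. The dose units, printed in the labels as if lengths, were taken to be micromolar and nanomolar. H93 is known here by its code name, which the series title ties to UHRF1, a protein that directs maintenance DNA methylation. The labels do not say that the libraries of a group came from separate cultures, so the p-values measure only how these libraries spread, and that spread may be technical. A single line at 1 time and 1 dose of each compound was measured.

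HSP70 proteins bind short hydrophobic stretches of unfolded clients in a cycle driven by ATP. J-domain proteins of the DNAJA, DNAJB and DNAJC classes bring clients and speed ATP hydrolysis, and nucleotide exchange factors release the client again, in part to HSP90 for the last folding steps of kinases and steroid receptors. Small heat shock proteins hold unfolded proteins without ATP, the endoplasmic reticulum (ER) and mitochondria have chaperones of their own, and on proteotoxic stress the transcription factor HSF1 binds inverted GAA repeats in the promoters of many cytosolic members.

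Promoter windows are shown for the 6 members that hold the long form of that repeat, since it is the textbook HSF1 element, and for HSPA1A and HSPB8 as examples of the short form. The windows run from 250 bases before to 50 bases after a transcript start and come from RefSeq (GRCh38.p14). They were given for 55 of the 59 members, the others being DNAJC1, DNAJC22, DNAJC24 and HSPA14. Both strands were searched for a short motif, GAANNTTC, and for a long one, the same letters followed by any 2 bases and a further GAA, so that every long match contains the short motif. Capitals mark matches of either motif or of its reverse complement. Windows of an inner start are shown for HSP90AA1, HSP90AB1, HSPA8 and HSPD1. The windows are, for DNAJA1, chr9:33025023-33025322 (plus strand), for DNAJB6, chr7:157336754-157337053 (plus), for HSP90AA1, chr14:102086995-102087294 (minus), for HSP90AB1, chr6:44247693-44247992 (plus), for HSPA8, chr11:123062087-123062386 (minus), for HSPD1, chr2:197499791-197500090 (minus), for HSPA1A, chr6:31815293-31815592 (plus) and for HSPB8, chr12:119178681-119178980 (plus).
DNAJA1: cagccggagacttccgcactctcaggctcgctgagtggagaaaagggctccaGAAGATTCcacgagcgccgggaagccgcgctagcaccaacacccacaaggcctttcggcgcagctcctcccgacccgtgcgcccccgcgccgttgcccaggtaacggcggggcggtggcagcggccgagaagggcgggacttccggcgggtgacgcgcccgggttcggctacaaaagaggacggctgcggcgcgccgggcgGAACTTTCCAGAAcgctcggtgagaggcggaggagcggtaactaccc
DNAJB6: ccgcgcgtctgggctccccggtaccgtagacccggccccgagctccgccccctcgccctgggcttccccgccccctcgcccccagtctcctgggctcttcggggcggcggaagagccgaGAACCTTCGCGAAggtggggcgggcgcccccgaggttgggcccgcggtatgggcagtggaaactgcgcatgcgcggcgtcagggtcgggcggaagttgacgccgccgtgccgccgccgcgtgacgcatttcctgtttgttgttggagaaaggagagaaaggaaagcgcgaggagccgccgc
HSP90AA1: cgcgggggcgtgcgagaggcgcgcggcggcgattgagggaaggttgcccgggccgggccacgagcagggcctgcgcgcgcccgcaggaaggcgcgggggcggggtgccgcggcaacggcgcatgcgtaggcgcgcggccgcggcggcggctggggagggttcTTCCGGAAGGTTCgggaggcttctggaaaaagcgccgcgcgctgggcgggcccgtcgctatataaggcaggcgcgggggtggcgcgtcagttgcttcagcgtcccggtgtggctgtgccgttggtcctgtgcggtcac
HSP90AB1: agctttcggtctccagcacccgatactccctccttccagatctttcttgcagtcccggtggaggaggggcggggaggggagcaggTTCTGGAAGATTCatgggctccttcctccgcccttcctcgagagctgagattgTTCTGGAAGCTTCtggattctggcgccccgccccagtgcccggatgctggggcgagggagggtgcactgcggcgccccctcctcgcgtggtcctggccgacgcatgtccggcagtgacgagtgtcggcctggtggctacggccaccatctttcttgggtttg
HSPA8: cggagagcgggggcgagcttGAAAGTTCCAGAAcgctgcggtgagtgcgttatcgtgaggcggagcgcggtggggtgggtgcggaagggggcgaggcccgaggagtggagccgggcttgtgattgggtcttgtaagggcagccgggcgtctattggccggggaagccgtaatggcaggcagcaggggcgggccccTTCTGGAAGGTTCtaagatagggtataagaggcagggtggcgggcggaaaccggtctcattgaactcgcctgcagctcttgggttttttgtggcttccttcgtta
HSPD1: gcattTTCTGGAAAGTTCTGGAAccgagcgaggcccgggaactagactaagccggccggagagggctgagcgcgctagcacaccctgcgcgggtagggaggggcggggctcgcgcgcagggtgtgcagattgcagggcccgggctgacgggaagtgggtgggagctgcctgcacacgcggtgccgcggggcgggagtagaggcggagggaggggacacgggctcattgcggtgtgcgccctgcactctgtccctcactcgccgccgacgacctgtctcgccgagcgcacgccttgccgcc
HSPA1A: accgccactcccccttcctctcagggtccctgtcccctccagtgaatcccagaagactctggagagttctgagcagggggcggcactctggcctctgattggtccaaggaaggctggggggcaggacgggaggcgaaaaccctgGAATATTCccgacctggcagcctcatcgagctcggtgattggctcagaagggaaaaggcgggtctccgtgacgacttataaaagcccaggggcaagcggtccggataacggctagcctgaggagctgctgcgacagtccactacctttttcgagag
HSPB8: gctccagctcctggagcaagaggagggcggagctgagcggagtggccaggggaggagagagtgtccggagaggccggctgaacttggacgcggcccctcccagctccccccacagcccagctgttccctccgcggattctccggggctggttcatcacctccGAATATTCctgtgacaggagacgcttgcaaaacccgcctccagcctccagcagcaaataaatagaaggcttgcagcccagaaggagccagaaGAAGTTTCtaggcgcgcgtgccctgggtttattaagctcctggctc
A gene was counted where any of its windows held the motif. The long motif was in 6 members, or 10.9% of those with a window, against 0.441% of 9528 tested genes with a window, the members included. The short motif was in 14 members, or 25.5%, against 6.24% of the tested genes. HSP90AB1, HSPA8 and HSPD1 hold the long motif at 2 places each, and in HSPD1 both matches overlap. HSPA1A and HSPB8 hold the short motif only, as do DNAJA4, DNAJB1, DNAJC6, HSPA1B, HSPA1L and HSPB1. Of these 8, HSPA1A, HSPB8, DNAJA4 and DNAJB1 rose and HSPB1 fell with H93, and with SAHA HSPA1A, HSPB8 and DNAJA4 rose and HSPB1 and HSPA1B fell. How reads were split between HSPA1A and HSPA1B is uncertain, as described below. The matches of HSPA1A and HSPA1L are the same bases of overlapping windows. Of all 14 members with the short motif, 35.7% rose and 35.7% fell with H93, against 34.9% and 35% of all genes tested. With SAHA 28.6% rose and 35.7% fell, against 27.4% and 31.4%, so both were near the background. A match describes these letters and is not evidence of binding. Neither motif was in the windows of DNAJC12, HSPA9 or DNAJB12, whose differences are described below.

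The libraries were alike in depth as far as it could be read. Absolute read depth is unknown, since FPKM only was used, but steps in the low values put the libraries between 0.875 and 1.0 of the deepest. The FPKM of a library summed to between 348656 and 355741, and correlations of log2 values across genes were 0.9976 to 0.9983 between replicates and 0.9724 to 0.9954 between groups. Of 5 epithelial markers 4 were in the table and detected in every library, with KRT8 between 664 and 737 FPKM and KRT18 between 653 and 714 FPKM. Of 5 leukocyte, endothelial and fibroblast markers in the table, 4 were under 1 FPKM in every library, and COL1A1 lay between 2.04 and 3.58 FPKM. The summed level of those markers ranged from 3.26 to 3.57 FPKM in H93 libraries, from 3.06 to 3.96 in SAHA libraries and from 2.15 to 2.71 in DMSO libraries, and its part in the results was not tested. The epithelial adhesion gene CDH1 was between 4.04 and 4.70 FPKM with H93, between 4.88 and 5.27 FPKM with SAHA and between 13.3 and 13.4 FPKM with DMSO. EPCAM, a further epithelial adhesion gene, was between 29.6 and 31.7 FPKM with H93, between 35.7 and 39.4 FPKM with SAHA and between 66.1 and 67.7 FPKM with DMSO. The part of these shifts in the results was not tested.

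The chaperone transcripts were dominated by a few constitutive genes. HSP90AB1, the constitutive cytosolic HSP90, averaged 1314 FPKM over the 9 libraries and held 23.9% of the FPKM of the 59 members. HSPA8, the constitutive cytosolic HSP70, averaged 899.7 FPKM and HSP90AA1, the more inducible HSP90, 649 FPKM, so that the first 3 genes held 52.0%. Next came HSP90B1 (GRP94) at 503 FPKM and HSPA5 (BiP) at 347 FPKM, the ER members of the HSP90 and HSP70 families, then HSPB1 (HSP27) at 291 FPKM and HSPD1 (HSP60) at 241 FPKM. In all, 8 members averaged over 100 FPKM, 33 between 10 and 100 and 18 under 10, with a median of 15.2 FPKM. Together the members made up 1.52 ± 0.0137% of the FPKM sum with H93, 1.57 ± 0.0222% with SAHA and 1.62 ± 0.00514% with DMSO (SD, n = 3 each). The 3 H93 libraries lay lowest, and neither compound's libraries overlapped the DMSO libraries in this share. The most abundant genes weigh most in it, and with H93 22 members rose and 22 fell, as described below. The share was not compared with that of other sets of genes.

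**Figure D1:**
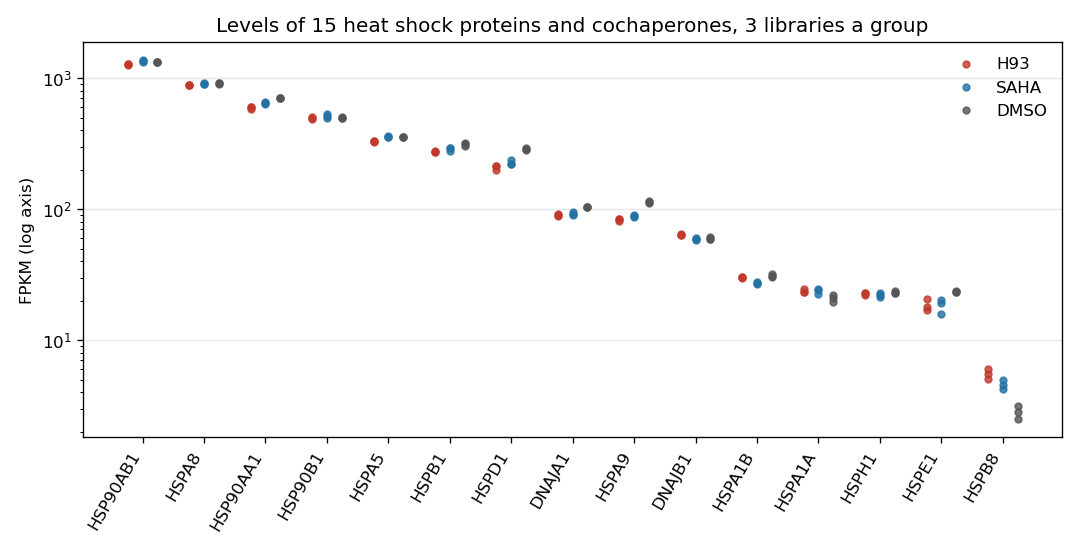
FPKM (log axis) of 15 members of the HSP and DNAJ families, ordered by their mean over all libraries, with each point 1 library and 3 libraries a group. Levels run from about 1314 FPKM for HSP90AB1 to under 10 FPKM for HSPB8, and the distance between groups is small beside the distance between genes.

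The first question was whether H93 or SAHA moved the chaperone system as a whole relative to DMSO. Members moved in both directions and by small amounts, much as all genes tested did. Values were fitted as log2(FPKM + 1) with limma over all 11525 genes that passed the same FPKM rule, and a gene is said to have risen or fallen at a Benjamini-Hochberg adjusted p under 0.05. With H93, 22 of the 59 members rose, 22 fell and 15 did not pass. Over all genes tested, 69.8% passed in that comparison, with 34.9% of all genes rising and 35% falling, so the share of members called (37.3% rose and 37.3% fell) was near the background. With SAHA, 17 members rose (28.8%), 21 fell (35.6%) and 21 did not pass. Over all genes 58.8% passed, 27.4% up and 31.4% down, so the members were again near the background. These counts include DNAJC12, and without it 21 of 58 members rose with H93 and 16 with SAHA. The median log2 difference of the members was 0.02 with H93 against 0.00157 over all genes, and -0.00621 with SAHA against -0.0145 over all genes. Without regard to sign, the median was 0.197 with H93 against 0.2 over all genes, and 0.157 with SAHA against 0.147. Both comparisons use the same DMSO libraries, so they are not independent of each other. In bulk RNA a smaller FPKM of a gene cannot tell fewer cells with the transcript from less of it in each cell.

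Large changes were few among the members, as among all genes tested. With a further threshold of 1.5-fold on the log2(FPKM + 1) scale, and leaving aside DNAJC12, whose level after the compounds admitted it, 2 members rose with H93 (HSPB8 and DNAJC1), against 5.78% of all genes, and 0 fell, against 4.85%. With SAHA, 0 members other than DNAJC12 rose past 1.5-fold by limma, against 3.05% of all genes, and 0 fell, against 2.23%, while 16 rose and 21 fell without the fold threshold. With DNAJC12 included, the counts were 3 of 59 members with H93 and 1 of 59 with SAHA. The shares of all genes also hold any gene that the compound libraries alone admitted. The counts with DNAJC12 are therefore the ones to set beside those shares. The count for SAHA was 3 without DMSO replicate 1, and 2 without SAHA replicate 1 or without SAHA replicate 3. The added genes were DNAJC22, whose fly homologue Wurst acts in endocytosis, and HSPB8. The libraries of the compared groups did not overlap for 46 of the 59 members with H93 and for 42 of 59 with SAHA, DNAJC12 included. For all genes tested these shares were 73.2% and 64.1%, and those of the members were slightly higher.

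**Figure D2:**
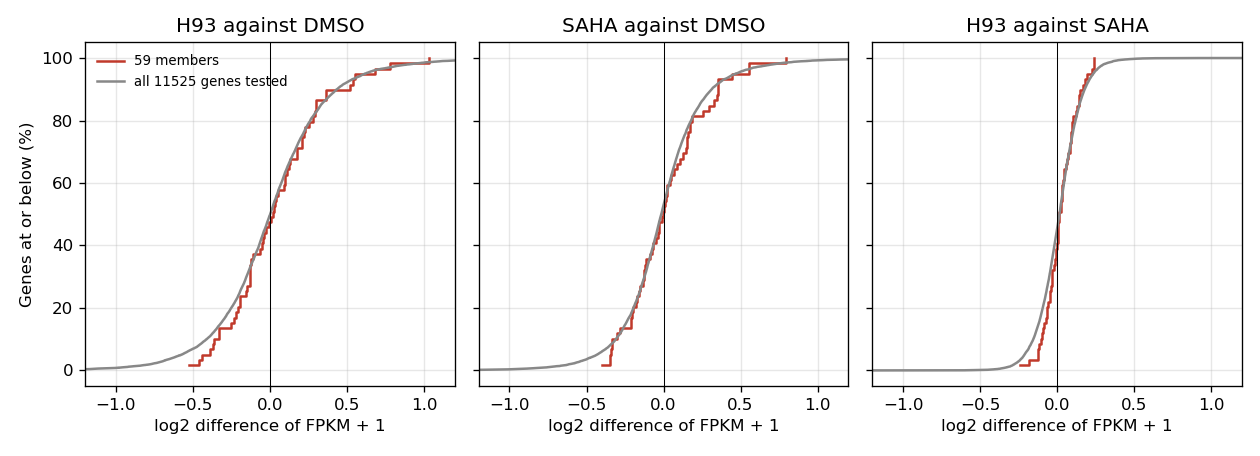
Cumulative share (%) of the 59 members and of all 11525 genes tested at or below each log2 difference of FPKM + 1, for H93 against DMSO, SAHA against DMSO and H93 against SAHA, with the axis cropped at 1.2 in either direction. The members follow the curve of all genes in each comparison, with DNAJC12 highest of them at 1.03 with H93. Their lower tail ends sooner, but 59 genes reach less far into a tail than 11525 do.

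**Figure D3:**
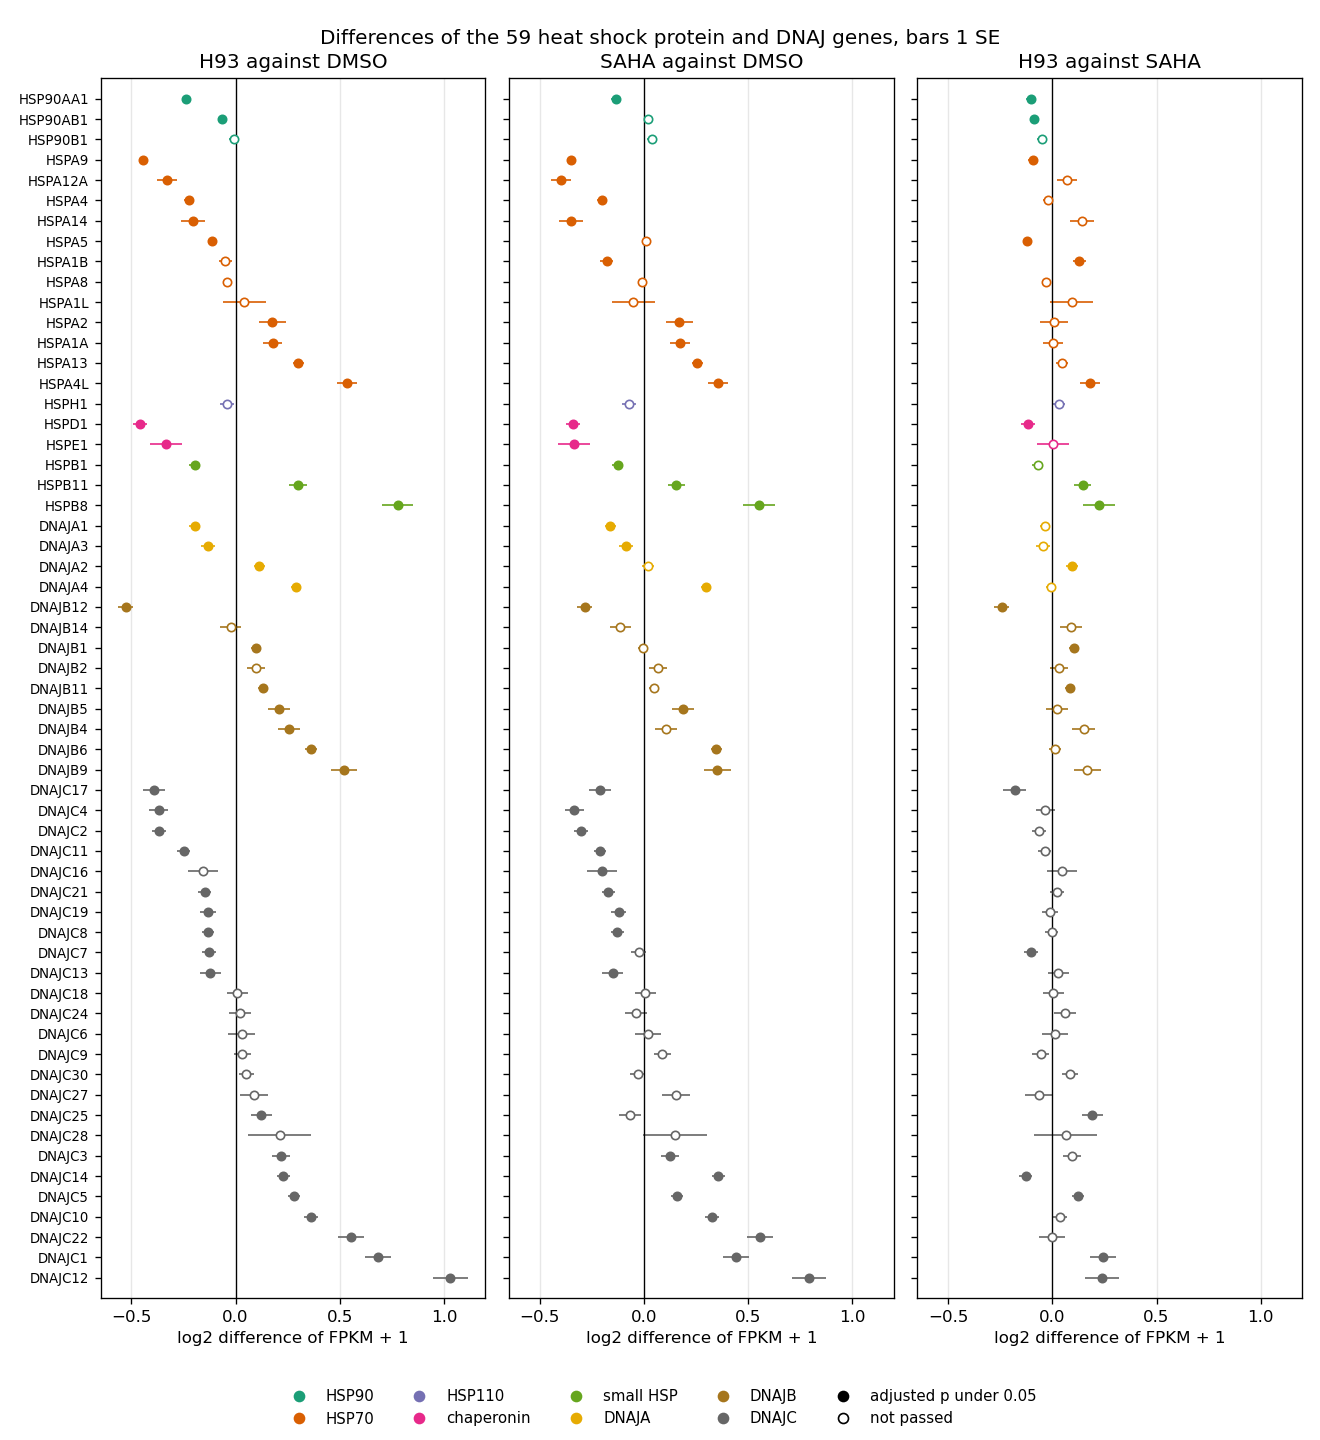
Log2 difference of FPKM + 1 with its SE for each of the 59 members, by class, in the 3 comparisons, with filled points at an adjusted p under 0.05. Both chaperonin genes and HSPA9 lie left of 0 against DMSO, DNAJC12, HSPB8 and DNAJC1 lie farthest right, and differences between H93 and SAHA are smaller.

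The mitochondrial chaperones fell with both compounds. HSPD1 (HSP60), HSPE1 (HSP10), HSPA9 (mortalin, the mitochondrial HSP70), its J-partner DNAJA3 and the import-motor J-protein DNAJC19 all fell, by 0.09 to 0.46 on the log2 scale. HSPA9 lies on chromosome 5 (138553756 to 138575724, minus strand, GRCh38) and had 83.8, 83.9 and 81.7 FPKM in H93 libraries, 88.3, 90.2 and 87.8 FPKM in SAHA libraries and 115, 113 and 112 FPKM in DMSO libraries. Its 3 groups did not overlap, with H93 lowest and DMSO highest. The log2 difference was -0.44 ± 0.02 (SE) with H93 (limma adjusted p = 4.53e-09) and -0.35 ± 0.02 with SAHA (limma adjusted p = 8.13e-08). HSPA9 had the smallest adjusted p of all members in both comparisons.

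HSPD1, the barrel of the mitochondrial folding chamber, had 215, 213 and 199 FPKM with H93, 220, 237 and 222 FPKM with SAHA and 291, 286 and 285 FPKM with DMSO. All 6 compound libraries lay below all DMSO libraries. Its log2 difference was -0.46 ± 0.03 with H93 (limma adjusted p = 1.21e-07) and -0.34 ± 0.03 with SAHA (limma adjusted p = 3.054e-06). HSPE1, the lid of that chamber, had 20.5, 17.8 and 17.1 FPKM with H93, 20.4, 16.0 and 19.1 FPKM with SAHA and 23.5, 23.1 and 23.9 FPKM with DMSO. The compound libraries were again below the DMSO libraries and more scattered, with log2 differences of -0.33 ± 0.08 (limma adjusted p = 0.002044) and -0.34 ± 0.08 (limma adjusted p = 0.002573). HSPD1 and HSPE1 are read from opposite strands of chromosome 2, with RefSeq start sites 105 bases apart at 197500274 and 197500379, and their promoter windows there overlap by 204 bases. In windows of 75 bases, 10.1% of HSPD1 and 22.3% of HSPE1 transcript sequence also occurs in other genes, for HSPE1 mostly in the read-through gene HSPE1-MOB4, so their FPKM is uncertain to that extent.

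DNAJA3 (Tid1), which works with HSPA9, averaged 42.9 ± 2.04 FPKM with H93, 44.3 ± 0.571 FPKM with SAHA and 47.1 ± 0.585 FPKM with DMSO (SD, n = 3 each), and DNAJC19 averaged 8.93, 9.0 and 9.88 FPKM in the same order. Both fell, and the falls with SAHA were near the threshold. The limma adjusted p of DNAJA3 with SAHA was 0.03423, and it lay between 0.05144 and 0.1029 when SAHA replicate 1 or 2 or any 1 DMSO library was left out. That of DNAJC19 with SAHA was 0.01426, and 0.05085 without DMSO replicate 2. By the deposited Gene Ontology terms 7 members belong to the mitochondrial matrix or inner membrane, and 5 fell and 0 rose with H93, as with SAHA. Without DMSO replicate 2 the count of falls with SAHA was 3. HSPA1L, near the FPKM limit, and DNAJC30, a small membrane protein, did not pass. Of all 620 tested genes with those terms, 49.4% fell and 23.9% rose with H93 and 44% fell and 18.5% rose with SAHA, so falls were common among mitochondrial genes at large.

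The abundant cytosolic HSP90 and HSP70 genes were lower by small amounts or did not pass. HSP90AA1 had 606, 607 and 584 FPKM with H93, 641, 659 and 629 FPKM with SAHA and 708, 703 and 705 FPKM with DMSO. The groups did not overlap, and H93 was lowest. It fell by 0.24 ± 0.02 on the log2 scale with H93 (limma adjusted p = 1.482e-06) and by 0.13 ± 0.02 with SAHA (limma adjusted p = 0.0003097). HSP90AB1 had 1277, 1274 and 1255 FPKM with H93, 1334, 1366 and 1340 FPKM with SAHA and 1333, 1317 and 1333 FPKM with DMSO. The H93 libraries were lowest, by a log2 difference of -0.07 ± 0.02 (limma adjusted p = 0.007154), a call that quantile normalization removed (adjusted p = 0.3567). With SAHA the difference was 0.02 ± 0.02 (limma adjusted p = 0.3613).

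HSPA8 had 887, 882 and 884 FPKM with H93, 898, 913 and 903 FPKM with SAHA and 901, 914 and 915 FPKM with DMSO. The H93 libraries lay below the others, while SAHA and DMSO overlapped. The log2 difference with H93 was -0.04 ± 0.02 at a limma adjusted p of 0.05565, which fell to between 0.04261 and 0.04595 when any 1 SAHA library was left out of the fit. HSPA4, a nucleotide exchange factor of the HSP110 kind, fell with both compounds (53.9 ± 1.09 FPKM with H93, 54.7 ± 0.538 with SAHA and 63.0 ± 0.657 with DMSO). Its relative HSPA4L rose, with 8.29, 8.0 and 7.55 FPKM in H93 libraries, 7.09, 7.07 and 6.51 FPKM in SAHA libraries and 5.06, 5.41 and 5.03 FPKM in DMSO libraries. The 3 groups of HSPA4L were apart, and its log2 difference was 0.54 ± 0.05 with H93 (limma adjusted p = 7.35e-07) and 0.36 ± 0.05 with SAHA (limma adjusted p = 4.724e-05). HSPH1 (HSP105), the third relative, averaged 22.6, 22.1 and 23.3 FPKM with H93, SAHA and DMSO and did not pass, although it passed as lower with SAHA when SAHA replicate 2 was left out (adjusted p = 0.0457).

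The classic heat-inducible genes stayed within a narrow range. HSPA1A, a stress-inducible HSP70, had 23.4, 24.5 and 23.4 FPKM with H93, 22.4, 24.7 and 24.2 FPKM with SAHA and 22.1, 19.5 and 21.1 FPKM with DMSO. It rose by 0.18 ± 0.05 with H93 (limma adjusted p = 0.004897) and by 0.17 ± 0.05 with SAHA (limma adjusted p = 0.006979). HSPA1B, its neighbour on chromosome 6, had 30.4, 29.7 and 30.1 FPKM with H93, 26.7, 27.5 and 28.0 FPKM with SAHA and 32.3, 30.3 and 30.9 FPKM with DMSO. It was lowest with SAHA, by a log2 difference of -0.18 ± 0.03 (limma adjusted p = 0.0003025), and with H93 the difference was -0.05 ± 0.03 (limma adjusted p = 0.1654). These 2 genes are nearly identical, and 71.2% of HSPA1A windows of 75 bases also occur in HSPA1B and 70.1% of HSPA1B windows in HSPA1A, so how reads were split between them is uncertain. Their sum, which does not depend on that split, averaged 53.8 ± 0.405 FPKM with H93, 51.1 ± 1.82 with SAHA and 52.1 ± 2.31 with DMSO (SD, n = 3 each), and its range in DMSO libraries, 49.8 to 54.4 FPKM, contained every H93 library. HSPA1L, a testis-enriched relative, averaged 1.13, 0.992 and 1.06 FPKM and did not pass.

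DNAJB1 (HSP40), the inducible J-partner of HSP70, had 64.2, 63.6 and 63.8 FPKM with H93, 58.4, 59.3 and 60.7 FPKM with SAHA and 60.9, 58.9 and 59.4 FPKM with DMSO. The H93 libraries were highest and the other groups overlapped. It rose by 0.10 ± 0.02 with H93 (limma adjusted p = 0.003338), and with SAHA its difference was -0.01 ± 0.02 (limma adjusted p = 0.8425). HSPA6 stayed between 0.731 and 0.989 FPKM with H93, between 0.780 and 0.983 FPKM with SAHA and between 0.686 and 0.969 FPKM with DMSO, and was below the limit for testing. Of the 6 members with the long promoter motif shown above, HSP90AA1, HSP90AB1, HSPD1 and DNAJA1 fell with H93, DNAJB6 rose and HSPA8 did not pass. With SAHA HSP90AA1, HSPD1 and DNAJA1 fell, DNAJB6 rose, and HSP90AB1 and HSPA8 did not pass. Over all genes tested 35% fell and 34.9% rose with H93, and 31.4% and 27.4% with SAHA. With 6 members, a part of the motif in these calls was not tested. HSF1 itself averaged 44.5 ± 2.58 FPKM with H93, 43.9 ± 1.62 with SAHA and 44.7 ± 0.362 with DMSO and did not pass, nor did HSF2.

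**Figure D4:**
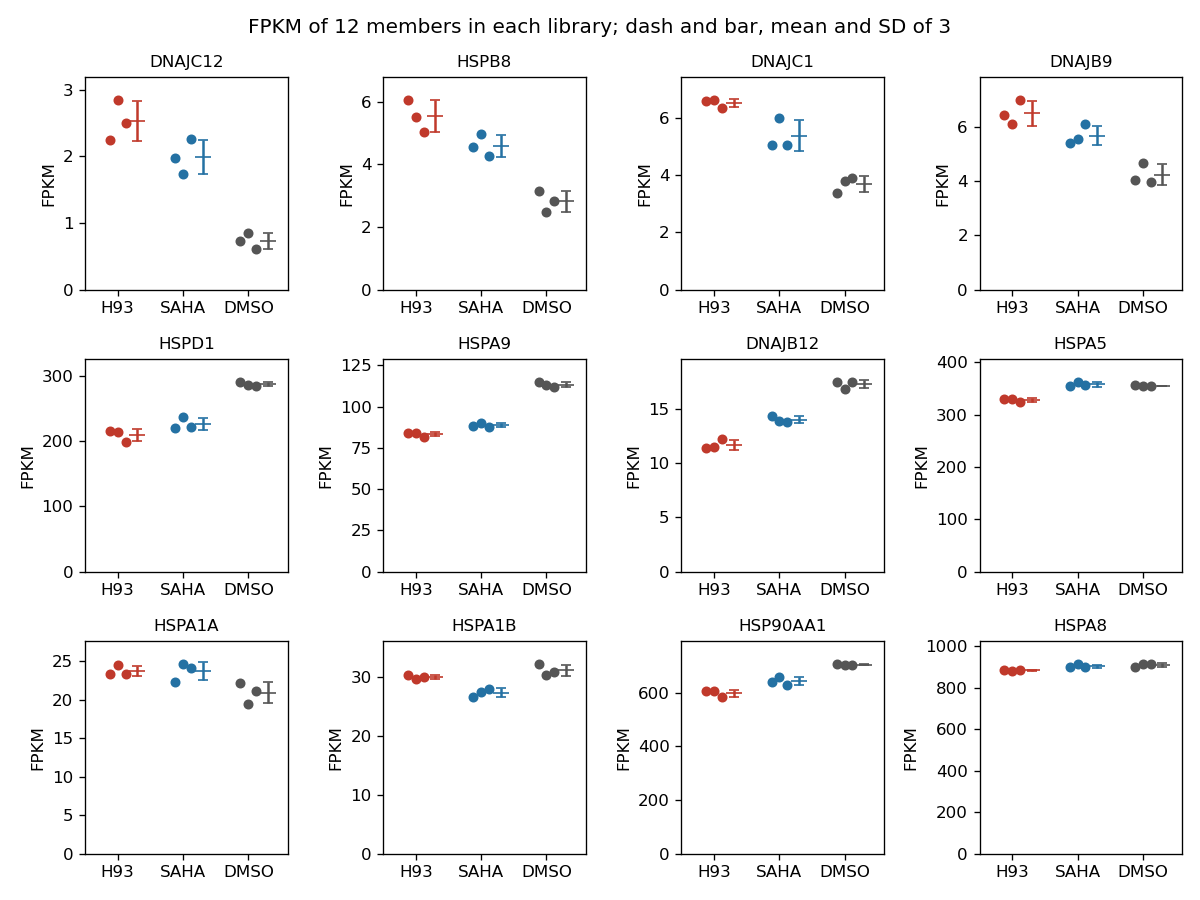
FPKM (axes from 0) of 12 members in every library, with H93, SAHA and DMSO from left to right, points for libraries, and a dash and bar for the mean and SD of 3. DNAJC12, HSPB8, DNAJC1 and DNAJB9 are higher with both compounds, HSPD1, HSPA9 and DNAJB12 are lower, and HSPA1A, HSPA1B and HSPA8 differ little.

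Of the small heat shock proteins, the abundant HSPB1 fell and the scarce HSPB8 rose. HSPB8 (HSP22) partners BAG3 in the selective autophagy of misfolded proteins and lies on chromosome 12 (119178642 to 119221131, plus strand, GRCh38). It had 6.06, 5.52 and 5.03 FPKM with H93, 4.55, 4.97 and 4.26 FPKM with SAHA and 3.15, 2.48 and 2.82 FPKM with DMSO. The 3 groups did not overlap, and the mean was 1.97 times that of DMSO with H93 and 1.63 times with SAHA. The log2 difference was 0.78 ± 0.08 with H93 (limma adjusted p = 1.452e-06) and 0.55 ± 0.08 with SAHA (limma adjusted p = 4.85e-05). BAG3 averaged 39.6 ± 1.87 FPKM with H93, 37.8 ± 0.507 with SAHA and 38.9 ± 1.17 with DMSO and did not pass. HSPB1, which binds actin and unfolded proteins, had 273, 271 and 276 FPKM with H93, 294, 277 and 291 FPKM with SAHA and 306, 319 and 316 FPKM with DMSO. DMSO libraries were all above the others, and the log2 difference was -0.20 ± 0.03 with H93 (limma adjusted p = 2.234e-05) and -0.13 ± 0.03 with SAHA (limma adjusted p = 0.001149). HSPB11, a subunit of the intraflagellar transport complex that carries the HSPB name, rose with both compounds (21.5 ± 0.547 FPKM with H93, 19.4 ± 1.05 with SAHA and 17.3 ± 0.715 with DMSO).

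In the ER, several J-proteins rose while HSPA5, their HSP70, did not. With H93, 7 of 12 ER members rose (58.3%) and 2 fell (16.7%), against 45.7% and 30% of the 831 tested genes with ER lumen or membrane terms. With SAHA 5 rose (41.7%) and 1 fell (8.33%), against 36.2% and 28.2%. With 12 members these shares rest on few genes, and rises were common among ER genes at large. DNAJC1 (ERdj1), a membrane J-protein that binds ribosomes, lies on chromosome 10 (21756537 to 22003769, minus strand) and had 6.57, 6.61 and 6.35 FPKM with H93, 5.04, 5.99 and 5.06 FPKM with SAHA and 3.37, 3.79 and 3.88 FPKM with DMSO. Its 3 groups did not overlap. The log2 difference was 0.68 ± 0.06 with H93 (limma adjusted p = 8.883e-07) and 0.44 ± 0.06 with SAHA (limma adjusted p = 6.858e-05). DNAJB9 (ERdj4), a target of the unfolded protein response that restrains the sensor IRE1, had 6.46, 6.11 and 7.01 FPKM with H93, 5.43, 5.56 and 6.11 FPKM with SAHA and 4.07, 4.70 and 3.99 FPKM with DMSO. The DMSO libraries were lowest, and it rose by 0.52 ± 0.06 with H93 (limma adjusted p = 1.226e-05) and by 0.35 ± 0.06 with SAHA (limma adjusted p = 0.0004707).

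DNAJC10 (ERdj5), a disulfide reductase, averaged 11.9 FPKM with H93, 11.6 FPKM with SAHA and 9.07 FPKM with DMSO and rose with both. DNAJC3 (P58IPK), which also brings clients to BiP, averaged 11.6, 10.8 and 9.82 FPKM, and its rise with SAHA (limma adjusted p = 0.02909) was lost without SAHA replicate 1 or 2 or DMSO replicate 1, at an adjusted p of 0.06707 to 0.1217. DNAJC14 averaged 19.2, 21.1 and 16.3 FPKM in the same order of groups and rose with both, although 26.9% of its windows occur in other genes. DNAJB11 (ERdj3), the abundant soluble J-partner of BiP, averaged 107 FPKM with H93, 101 FPKM with SAHA and 97.7 FPKM with DMSO and passed as higher with H93 (limma adjusted p = 0.0005033) but not with SAHA (limma adjusted p = 0.1248). DNAJC25 rose with H93 at a limma adjusted p of 0.04766, in overlapping groups, and lost the call without any 1 of H93 replicates 1 and 2, SAHA replicate 1 and DMSO replicates 2 and 3, at an adjusted p of 0.05565 to 0.1714. Without 1 of those libraries the count of ER members that rose with H93 was at least 6.

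HSPA5 (BiP), the HSP70 of the ER, had 330, 331 and 325 FPKM with H93, 354, 363 and 357 FPKM with SAHA and 356, 355 and 355 FPKM with DMSO. The H93 libraries were below all others, and SAHA overlapped DMSO. It fell by 0.11 ± 0.02 with H93 (limma adjusted p = 0.0001908), and the difference with SAHA was 0.01 ± 0.02 (limma adjusted p = 0.6179). DNAJB12, an ER membrane J-protein that helps dispose of misfolded membrane proteins, had 11.4, 11.5 and 12.2 FPKM with H93, 14.4, 13.9 and 13.8 FPKM with SAHA and 17.5, 16.9 and 17.5 FPKM with DMSO. It had the largest fall of all members with H93, at -0.53 ± 0.04 (limma adjusted p = 6.116e-08), and fell by 0.28 ± 0.04 with SAHA (limma adjusted p = 2.731e-05). Its paralog DNAJB14 (10.2, 9.49 and 10.3 FPKM with H93, SAHA and DMSO) did not pass. HSP90B1 averaged 497, 514 and 499.5 FPKM and did not pass with either compound, but it passed as lower with H93 under quantile normalization (log2 difference -0.11, adjusted p = 0.002288) and as higher with SAHA without SAHA replicate 3 (adjusted p = 0.04511). DNAJC18, with 3.39, 3.38 and 3.36 FPKM, did not pass either.

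Among the remaining J-proteins the changes went both ways. DNAJC12, a cochaperone of HSP70 for the aromatic amino acid hydroxylases, lies on chromosome 10 (67796665 to 67838166, minus strand) and had 2.24, 2.84 and 2.50 FPKM with H93, 1.98, 1.74 and 2.25 FPKM with SAHA and 0.728, 0.846 and 0.603 FPKM with DMSO. Every compound library was above every DMSO library. The mean was 3.48 times that of DMSO with H93 and 2.74 times with SAHA, and on the log2(FPKM + 1) scale, which understates low genes, the difference was 1.03 ± 0.08 and 0.79 ± 0.08. These values are a description with no test, since DNAJC12 met the FPKM limit through the compound libraries alone. DNAJC22 averaged 4.21 FPKM with H93, 4.22 FPKM with SAHA and 2.56 FPKM with DMSO and rose by 0.55 ± 0.06 and 0.56 ± 0.06. DNAJB6, which suppresses the aggregation of polyglutamine proteins, had 74.3, 76.8 and 72.4 FPKM with H93, 72.1, 73.3 and 75.9 FPKM with SAHA and 57.3, 57.5 and 58.5 FPKM with DMSO. The DMSO libraries were lowest, and it rose by 0.36 ± 0.03 with H93 (limma adjusted p = 1.924e-07) and by 0.35 ± 0.03 with SAHA (limma adjusted p = 5.289e-07), and 15.1% of its windows occur in other genes.

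In the DNAJA class, the paired cytosolic J-proteins parted. DNAJA1, with the long motif, had 90.3, 91.7 and 89.3 FPKM with H93, 91.9, 95.7 and 90.7 FPKM with SAHA and 103, 104 and 104 FPKM with DMSO, and fell by 0.20 ± 0.02 (limma adjusted p = 1.318e-05) and 0.16 ± 0.02 (limma adjusted p = 0.0001171). DNAJA4 averaged 38.6, 38.8 and 31.4 FPKM with H93, SAHA and DMSO and rose with both. DNAJA2 averaged 49.3, 46.1 and 45.5 FPKM and rose with H93. DNAJB4 and DNAJB5, cytosolic relatives of DNAJB1, averaged 16.6 and 10.7 FPKM with H93 and 13.7 and 9.14 FPKM with DMSO and rose, DNAJB5 also with SAHA, while DNAJB2, a neuronal J-protein, did not pass.

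Of 25 DNAJC members, 8 rose and 9 fell with H93, and 7 rose and 9 fell with SAHA. These are 32% and 36% with H93, against 34.9% and 35% of all genes, and 28% and 36% with SAHA, against 27.4% and 31.4%, all near the background. The rises with both compounds include DNAJC12, whose difference from DMSO was partly fixed by the choice of members. DNAJC2 and HSPA14 form the ribosome-associated complex that meets nascent chains, and both fell. DNAJC2 averaged 30.9 ± 0.813 FPKM with H93, 32.3 ± 1.39 with SAHA and 40.1 ± 0.730 with DMSO, and HSPA14 14.9 ± 0.810, 13.4 ± 0.519 and 17.3 ± 1.56 FPKM. DNAJC17, a nuclear J-protein with an RNA-binding domain, had 2.25, 2.34 and 2.32 FPKM with H93, 2.96, 2.55 and 2.74 FPKM with SAHA and 3.18, 3.48 and 3.35 FPKM with DMSO, in 3 groups that did not overlap, and fell by 0.39 ± 0.05 (limma adjusted p = 3.246e-05) and 0.21 ± 0.05 (limma adjusted p = 0.004961). DNAJC4 averaged 12.4, 12.7 and 16.3 FPKM with H93, SAHA and DMSO and fell with both, and 18.4% of its windows occur in other genes, mostly its neighbour NUDT22. DNAJC11, of the mitochondrial outer membrane, DNAJC8, linked to splicing, and DNAJC21, of ribosome assembly, fell with both compounds by 0.13 to 0.25. DNAJC5, the cysteine string protein of secretory vesicles, averaged 31.3, 28.7 and 25.6 FPKM with H93, SAHA and DMSO and rose with both. DNAJC7 averaged 48.7, 52.3 and 53.3 FPKM and passed as lower with H93 (limma adjusted p = 0.005195) but not with SAHA. The clathrin-uncoating DNAJC6, the histone chaperone DNAJC9, DNAJC24, which takes part in diphthamide synthesis, DNAJC27 and DNAJC28 did not pass in either comparison. DNAJC13, an endosomal J-protein, averaged 12.8, 12.5 and 14.0 FPKM and passed as lower with both, but lost the call with H93 (limma adjusted p = 0.04398) without any 1 H93 or DMSO library other than H93 replicate 2, at an adjusted p of 0.05649 to 0.1769, and with SAHA without SAHA replicate 3 or DMSO replicate 1, at 0.05745 to 0.08709. DNAJC16 averaged 4.38, 4.22 and 4.99 FPKM and passed as lower with SAHA but not with H93, a call lost without SAHA replicate 2, DMSO replicate 1 or DMSO replicate 3 (adjusted p of 0.06807 to 0.131).

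In the HSPA class, HSPA13, a microsomal relative of unclear function, rose with both compounds (41.9 ± 0.928 FPKM with H93, 40.5 ± 0.418 with SAHA and 33.8 ± 0.725 with DMSO), and HSPA12A, a distant relative, fell with both (2.04, 1.90 and 2.83 FPKM). HSPA2, known for its role in spermatogenesis, averaged 11.4, 11.3 and 9.95 FPKM, and its calls as higher were weak. With H93 the limma adjusted p was 0.0291, and 0.07065 to 0.1402 without H93 replicate 3, DMSO replicate 1 or DMSO replicate 2. With SAHA it was 0.04137, and 0.09478 to 0.1537 without SAHA replicate 1 or 3 or DMSO replicate 1 or 2.

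The design also sets H93 against SAHA directly, which asks where the levels after the compounds differ. Of the 59 members 11 were higher with H93, 9 were lower and 39 did not pass, against 31.5% of all genes passing, 17.6% higher and 13.9% lower. That balance turned with scaling, since 2031 genes were higher and 1598 lower as deposited, but 1714 were higher and 1826 lower under median-ratio rescaling, which left 8 members higher and 10 lower. By limma with the 1.5-fold threshold 0 members passed in either direction, against 0.0954% of all genes higher and 0.0521% lower. The median of the members was 0.01 on the log2 scale, near that of all genes (0.02). The libraries did not overlap for 28 of the 59 members, a share slightly above the 44.4% of all genes. The count of higher members was 5 without H93 replicate 1, 6 without H93 replicate 2 and 6 without SAHA replicate 1, so it depended on single libraries.

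The members that were lower with H93 than with SAHA included HSPA5, HSPA9 and both cytosolic HSP90 genes, while the abundant HSPA8 (limma adjusted p = 0.1899) and HSP90B1 (limma adjusted p = 0.1432) did not pass. Under quantile normalization HSP90B1 passed as lower with H93 (limma adjusted p = 0.02845). HSPA5 (328.5 ± 3.47 FPKM with H93 and 358 ± 4.32 FPKM with SAHA) differed by -0.12 ± 0.02 (limma adjusted p = 0.0006557) and HSPA9 by -0.09 ± 0.02 (limma adjusted p = 0.008667). HSP90AA1 differed by -0.10 ± 0.02 (limma adjusted p = 0.005798) and HSP90AB1 by -0.09 ± 0.02 (limma adjusted p = 0.00477), and both calls were lost under quantile normalization (adjusted p of 0.06995 and 0.5219). DNAJB12 showed the largest of these differences, -0.24 ± 0.04 (limma adjusted p = 0.0005414). DNAJC14 was also lower with H93, at -0.13 ± 0.03 (limma adjusted p = 0.009126). HSPD1 was lower at a limma adjusted p of 0.02248, which became 0.07801 without SAHA replicate 2 and 0.08601 without H93 replicate 3. DNAJC17 (limma adjusted p = 0.02343) lost its call without H93 replicate 1, SAHA replicate 1 or SAHA replicate 3, at 0.0543 to 0.08546, and DNAJC7, a cochaperone of HSP70 and HSP90 (limma adjusted p = 0.04107), lost it in 5 of 9 such fits, at 0.05221 to 0.1402, and with the replicate block (adjusted p = 0.06287).

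The members that were higher with H93 included DNAJB1 (0.10 ± 0.02, limma adjusted p = 0.007601), HSPA1B (0.13 ± 0.03, limma adjusted p = 0.007954) and DNAJC5 (0.12 ± 0.03, limma adjusted p = 0.007601). HSPA1A, the near copy of HSPA1B, differed by 0.00 ± 0.05. For the other 8 members that were higher, 1 library decided the call. DNAJC1 (0.24 ± 0.06, limma adjusted p = 0.01264) had an adjusted p of 0.05105 without SAHA replicate 3. HSPA4L (0.18 ± 0.05, limma adjusted p = 0.01441) had 0.05905 without H93 replicate 1 and 0.05811 without SAHA replicate 3. DNAJC25 (0.19 ± 0.05, limma adjusted p = 0.0148) had 0.06044 without H93 replicate 1 and 0.05575 without SAHA replicate 2. HSPB8 (0.22 ± 0.08, limma adjusted p = 0.03959) and DNAJC12 (0.24 ± 0.08, limma adjusted p = 0.0454) each lost the call in 5 of 9 fits without 1 library, at up to 0.1487 and 0.1668. HSPB11, DNAJA2 and DNAJB11 lost it in 3, 3 and 4 such fits, at up to 0.08006, 0.07538 and 0.09265. Scaling mattered too, since HSPB8 (0.0504), DNAJC12 (0.05616) and DNAJB11 (0.06077) lost the call under median-ratio rescaling. HSPB1 did not pass (limma adjusted p = 0.05668), but was lower with H93 at 0.01172 without SAHA replicate 2. It was also lower at 0.02763 under median-ratio rescaling and at 0.04722 with a mean FPKM of at least 5. DNAJB6 (0.01 ± 0.03), DNAJA4 (-0.01 ± 0.02), DNAJC22 (-0.00 ± 0.06) and HSPE1 (0.00 ± 0.08) had differences within their SE, which does not show that the compounds act alike on them.

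Genes that work with these chaperones were counted from 6 lists that hold no member, and some genes are in more than 1 list. Over all genes tested, 34.9% rose and 35% fell with H93, and 27.4% rose and 31.4% fell with SAHA. No list was tested as a set. Of 15 tested heat shock factor genes and HSF1 targets or regulators, 1 rose (6.67%) and 5 fell (33.3%) with H93. With SAHA 2 rose (13.3%) and 5 fell (33.3%), so the falls were near the share of all genes. The rises were below that share with both compounds (34.9% of all genes with H93 and 27.4% with SAHA). In this list 9 genes did not pass with H93 and 8 did not with SAHA. The count of rises with H93 was 2 without SAHA replicate 1, and that with SAHA was 1 without SAHA replicate 3, DMSO replicate 2 or DMSO replicate 3. The largest changes there were SERPINH1 (HSP47), the collagen chaperone of the ER, with 36.0 ± 1.25 FPKM in H93 libraries, 46.9 ± 0.237 in SAHA libraries and 73.1 ± 2.30 in DMSO libraries, and HSBP1L1, a relative of the HSF1-binding protein HSBP1, with 11.1 ± 0.135, 14.2 ± 0.625 and 27.9 ± 1.65 FPKM. Both fell with both compounds, HSBP1L1 by 1.25 and SERPINH1 by 1.00 on the log2 scale with H93. Of 15 exchange factors and partners of HSP70, 3 rose (20%) and 7 fell (46.7%) with either compound. BAG2, which inhibits the ubiquitin ligase CHIP, averaged 26.8 ± 0.467 FPKM with H93, 30.2 ± 1.45 with SAHA and 36.7 ± 0.313 with DMSO, and HSPBP1, an exchange factor, 17.5 ± 0.843, 17.3 ± 0.705 and 22.9 ± 0.776 FPKM. HYOU1 (GRP170), the exchange factor of BiP, fell by 0.18 with either compound (114.5, 114.9 and 130.0 FPKM).

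Of 25 tested cochaperones of HSP90, 8 rose (32%) and 10 fell (40%) with H93, and 6 rose (24%) and 9 fell (36%) with SAHA. These shares were near those of all genes tested. CDC37, which hands kinases to HSP90, had 347, 350.3 and 356 FPKM with H93, 297, 305.5 and 315 FPKM with SAHA and 247, 243 and 249 FPKM with DMSO. The groups were apart, and CDC37 rose by 0.51 ± 0.02 with H93 (limma adjusted p = 2.57e-09) and by 0.31 ± 0.02 with SAHA (limma adjusted p = 4.109e-07), while HSP90AA1 fell in the same libraries. TTC1, a tetratricopeptide adaptor, rose too (53.8 ± 0.740, 47.1 ± 2.15 and 38.9 ± 1.19 FPKM with H93, SAHA and DMSO). HDAC6, a deacetylase of HSP90 and tubulin, averaged 4.66 ± 0.250 FPKM with H93, 5.41 ± 0.259 with SAHA and 6.76 ± 0.319 with DMSO and fell with both.

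Of the 15 subunits of the cytosolic chaperonin TRiC and of prefoldin, 5 rose (33.3%) and 5 fell (33.3%) with H93, near the shares of all genes tested. With SAHA 3 rose (20%) and 5 fell (33.3%). CCT5 fell by 0.30 with H93 and by 0.15 with SAHA, and PFDN1 rose by 0.24 and 0.23. The count of rises with H93 was 3 without H93 replicate 1 or without DMSO replicate 2. Of 27 ER folding and unfolded protein response genes, 17 rose (63%) and 10 fell (37%) with H93, against 45.7% and 30% of the 831 tested ER genes. With SAHA 15 rose (55.6%) and 9 fell (33.3%), against 36.2% and 28.2%. TXNDC5, a disulfide isomerase, averaged 126 ± 2.55 FPKM with H93, 160 ± 1.32 with SAHA and 207 ± 3.63 with DMSO, while the oxidase ERO1B averaged 3.67 ± 0.230, 3.05 ± 0.172 and 2.39 ± 0.122 FPKM and rose. Of 17 further mitochondrial chaperone, import and protease genes, 3 rose (17.6%) and 9 fell (52.9%) with H93, against 23.9% and 49.4% of the 620 tested mitochondrial genes. With SAHA 3 rose (17.6%) and 7 fell (41.2%), against 18.5% and 44%, so both were near that background. The count of rises with H93 was 1 without H93 replicate 1 and 1 without H93 replicate 2. TRAP1, the mitochondrial HSP90, had 56.1 ± 1.25 FPKM with H93, 65.0 ± 1.56 with SAHA and 80.9 ± 1.34 with DMSO, and fell by 0.52 ± 0.03 (limma adjusted p = 4.698e-09) and 0.31 ± 0.03 (limma adjusted p = 9.251e-07). PMPCA, a subunit of the peptidase that trims imported precursors, fell by 0.47 and 0.45.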

How the data were processed

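RNA of 9 DU145 libraries was sequenced after TRIzol extraction and stranded TruSeq mRNA library preparation, per the labels' protocols. The authors deposited 1 table of FPKM per gene and library. The build GRCh38.p13 and the tools HISAT2, Cufflinks and Trimmomatic 0.36 are listed, per the submitters' processing notes, with no role for each. The gene annotation, and whether strand was used, is not given in the sources used here. FPKM is relative to the other transcripts of a library, and no counts were used, so read depth and counting error are unknown.

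Columns were matched to samples by name. Values were fitted as log2(FPKM + 1), on which fold changes of low genes are understated, for 11525 genes that reached an FPKM of 1 in 3 or more of 9 libraries. The 9 libraries entered a single limma 3.58.1 fit (R 4.3.3) of group means with a trended empirical Bayes prior, with 6 residual and 6.05 prior degrees of freedom, two-sided, with Benjamini-Hochberg adjustment over all genes kept. Errors of log2 differences are SE, and those of levels are SD. The fit was tested on simulated data. The members, lists and markers were chosen with earlier results of these data known. The labels put the same replicate numbers in each group, but same-numbered libraries did not deviate together (correlations of -0.0975 to 0.0355), so no pairs were formed. No batch is given in the labels.

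Named with values were 15 anchor members, up to 4 members of each class with the largest passing difference, those next to the FPKM limit, the 2 largest of each list, and HSF1, HSF2, TRAP1, HYOU1 and HDAC6; other members and BAG3 were named after their values were seen. Gene positions came from GENCODE 29 (GRCh38), promoter windows from RefSeq, and places in the cell from the Gene Ontology terms in the deposited table. Sequence shared with other genes was counted in windows of 75 bases over reference transcripts. Alternatives were pseudocounts of 0.1 and 5, no filter, quantile normalization, median-ratio rescaling, a fixed FPKM sum, a filter on mean FPKM (at least 5), robust moderation, the replicate block, only the 6 libraries compared, and each library left out. Python 3.11.15, numpy 2.4.6, pandas 2.3.3 and, for plots, matplotlib 3.10.9 were used.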

Additional observations from a re-analysis of the deposited data

How the results depend on the processing

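Absolute depth is unknown, 1 line was measured at 1 time, and small differences in abundant genes depend on scaling. Over 151 single-gene results and 2853 alternative values, those of HSPA9, HSPD1, HSPB8, DNAJC1 and DNAJB12 against DMSO kept direction and call under every alternative in which they were tested (a mean FPKM of at least 5 leaves out HSPB8). Members past 1.5-fold with H93, DNAJC12 included, numbered 6 at a pseudocount of 0.1, 0 at a pseudocount of 5 and 1 at a mean FPKM of at least 5, and 3 to 4 with 1 library left out. With SAHA they numbered 3, 0 and 0 in the same settings and 1 to 3 with 1 library left out. The median of the members with H93 was -0.0158 at a mean FPKM of at least 5 and -0.0109 under quantile normalization, and -0.000645 to 0.0213 with 1 library left out. That with SAHA was -0.0262 under quantile normalization, 0.00793 under median-ratio rescaling and -0.0254 to 0.0132 with 1 library left out, so its sign was not stable. With 1 library left out, 5 to 13 members were higher with H93 than with SAHA. Of the TRiC and prefoldin list, 5 rose with SAHA under median-ratio rescaling, and 3 to 5 rose with H93 with 1 library left out. Of the heat shock factor list, 1 to 2 rose with H93 and 1 to 3 with SAHA with 1 library left out. Of the mitochondrial list, 1 to 4 rose with H93 in those fits. Of ER members, 2 fell with SAHA at a fixed FPKM sum. Of mitochondrial members, 3 to 5 fell with SAHA with 1 library left out. The cause of these shifts was not tested.

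With the replicate number as a block, 22 members rose and 22 fell with H93 and 17 rose and 21 fell with SAHA, and 3 genes of the TRiC and prefoldin list rose with H93. The block moved 2 of 151 single-gene calls, both in H93 against SAHA, of DNAJC12 (adjusted p = 0.06639) and DNAJC7 (adjusted p = 0.06287). Directions turned only where a gene had not passed. With 1 library left out, the log2 difference with H93 ran from -0.0144 to 0.00374 for HSP90B1 (0.00343 without H93 replicate 3) and from -0.0418 to 0.0384 for HSF1, which was 0.00484 under quantile normalization. With SAHA, DNAJB1 ran from -0.0205 to 0.00769 (0.00597 without SAHA replicate 1) and was 0.00793 under median-ratio rescaling, which gave HSPA8 0.00541, and quantile normalization gave HSP90AB1 -0.00326, HSP90B1 -0.0262 and HSPA5 -0.0359. In H93 against SAHA, HSPA1A ran from -0.0371 to 0.0303 (-0.0194 without H93 replicate 2) and HSPE1 from -0.0936 to 0.0752 (-0.0704 without H93 replicate 1). Median-ratio rescaling gave them -0.0108 and -0.0103, and quantile normalization gave -0.0102 and -0.014, and HSPA8 0.00985.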
